A study of Arabidopsis thaliana with 8 samples.

Results

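The PYR/PYL proteins of Arabidopsis thaliana are the receptors of abscisic acid (ABA), the plant hormone of drought and seed dormancy. Small RNA reads were examined here at 10 of their genes, PYR1 and PYL1 to PYL9, which were chosen by locus code from the 24859 mRNA loci of the deposited table, with no threshold on their values. All 10 passed the filter on low counts and were tested among 24722 loci. PYL10 to PYL13, the remaining genes of the family, are given only for comparison.

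Reads came from 4 genotypes with 2 biological replicates each: the urt1-1 xrn4-3 double mutant, the xrn4-3 single mutant, the urt1-1 single mutant and wild type (WT). The plants were whole plantlets of 24 days, raised in vitro on Murashige & Skoog agar in cycles of 12 h day (22 °C) followed by a 12 h night (18 °C), and the labels name no hormone or stress treatment. urt1-1 disrupts URT1, a terminal uridylyltransferase that adds uridines to mRNAs with shortened poly(A) tails, and xrn4-3 disrupts XRN4, the cytoplasmic 5′ to 3′ exoribonuclease. Each mutation is represented by a single allele, and whole plantlets mix root and shoot cells, so that a change in cell makeup and a change in small RNA per cell cannot be told apart.

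In the absence of ABA, clade A type 2C protein phosphatases (PP2Cs) keep SnRK2 kinases inactive. A PYR/PYL receptor that has bound ABA closes a gate loop over the hormone and docks onto a PP2C, which frees the kinases to phosphorylate transcription factors and ion channels. The family falls into 3 subfamilies: PYR1 and PYL1 to PYL3, which mostly form dimers, PYL4 to PYL6 with PYL11 to PYL13, and PYL7 to PYL9 with PYL10, the last of these being monomers with high affinity for the phosphatases. In plants, mRNA fragments that escape decay can be copied into double-stranded RNA and diced into small interfering RNA, so that reads of small RNA libraries at an mRNA locus can be such RNA or degradation fragments. The counts used here do not separate these kinds and are no measure of the level of the mRNA.

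The receptors are similar proteins, and whether a short read belongs to one of them depends on their DNA. The 5 codons of the gate loop encode the same residues in all 10 members, a motif found exactly 1 time in each coding sequence. They are shown in capitals, with 2 codons on each side, 5′ to 3′ on the coding strand, because this is among the most conserved stretches of the receptors. Sequences and positions are from the RefSeq annotation of build TAIR10.1.
PYR1 (AT4G17870), chr4:9929038-9929064, plus strand: gtcatcAGTGGATTACCGGCGaacaca
PYL1 (AT5G46790), chr5:18984375-18984401, minus strand: gtgataAGTGGATTACCGGCGaatacg
PYL2 (AT2G26040), chr2:11095120-11095146, minus strand: gtaatcTCCGGCCTCCCAGCCtcaacc
PYL3 (AT1G73000), chr1:27463410-27463436, plus strand: gtggtcTCTGGTCTTCCAGCGtcaaca
PYL4 (AT2G38310), chr2:16050563-16050589, plus strand: gtcgtcTCTGGTCTCCCCGCCgctagc
PYL5 (AT5G05440), chr5:1609704-1609730, plus strand: gtggtcTCTGGACTCCCGGCGgtctcg
PYL6 (AT2G40330), chr2:16845459-16845485, minus strand: gtcgtcTCTGGTCTCCCCGCGgcgttt
PYL7 (AT4G01026), chr4:447662-447688, plus strand: gtcaaaTCTGGTCTTCCAGCAaccacc
PYL8 (AT5G53160), chr5:21561553-21561579, plus strand: gtgaaaTCTGGACTACCAGCAactaga
PYL9 (AT1G01360), chr1:142532-142558, plus strand: gttaaaTCTGGTCTTCCTGCAacaaca
The same 5 residues were spelled in 9 ways, and only PYR1 and PYL1 shared their spelling. No 2 of the 27-base stretches were identical: the 45 pairs differed at 4 to 15 bases, and PYR1 with PYL1 and PYL7 with PYL9 were the closest, with 4 differences each.

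Over whole coding sequences, the 45 pairs of members were 59.7% to 80.3% identical, with a median of 63.4%. PYL7 and PYL9 formed the most similar pair and also shared the longest identical coding run, 32 bases. It is shown in capitals with 4 bases on each side, since small RNA reads of usual length from this run fit both genes.
PYL7, chr4:447565-447604, plus strand: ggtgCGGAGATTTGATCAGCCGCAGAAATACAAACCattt
PYL9, chr1:142435-142474, plus strand: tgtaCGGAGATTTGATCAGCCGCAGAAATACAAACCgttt
Of all windows of 21 nt in the member genes, between 0.066% (PYL5) and 3.28% (PYL9) occurred elsewhere in the genome on either strand. PYL7 shared 24 such windows with PYL9 and 5 with PYL8, and no other pair of members shared any. Reads of PYL7, PYL8 and PYL9 are thus partly interchangeable over these windows, where a read that mapped equally well to both genes could be counted at both. The windows cover the TAIR10.1 genes, which are wider than the counted loci. Reads shorter than 21 nt, where counted, can fit further pairs. PYR1 and PYL1, PYL4 and PYL6, PYL5 and PYL6, and PYL8 and PYL9 each shared a coding run of 20 bases. The study's mapping also allowed a mismatch, which these windows do not cover.

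Introns divided the coding sequence only in the third subfamily. In TAIR10.1, PYR1 and PYL2 to PYL6 had no intron, PYL1 had 1 intron outside its coding sequence, and PYL7, PYL8 and PYL9 had 3 exons each. In the TAIR10 coordinates of the deposited table, the members lay on chromosomes 1, 2, 4 and 5, and their loci spanned 573 nt (PYL2) to 1543 nt (PYL8). PYL7 was the only member that overlapped another locus of the table: chr4:447941-450642 on the minus strand, AT4G01030, covered 571 nt of PYL7, 39.1% of its length. Counting used default settings, which ignore strand, so reads in this stretch cannot be assigned to PYL7 or to AT4G01030.

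The libraries held 6045353 to 30064224 counted reads, with the deepest being urt1-1 xrn4-3 replicate 2. Levels are given as CPM, reads at a locus for every 1000000 counted reads of the library, after scaling of the totals with TMM factors of 0.885 to 1.23. Over all loci, xrn4-3 replicate 2 was closer to the double mutant than to its own replicate: its log2 CPM correlated at 0.929 and 0.921 with the urt1-1 xrn4-3 libraries and at 0.904 with xrn4-3 replicate 1. This was not particular to it: each WT and urt1-1 library and xrn4-3 replicate 1 also correlated best with a library of another genotype. WT replicate 1, for example, was at 0.962 with urt1-1 replicate 1 and 0.946 with WT replicate 2. For xrn4-3 replicate 1 the value with WT replicate 1 was 0.933. Only the urt1-1 xrn4-3 libraries were closest to each other, at 0.937. The library xrn4-3 replicate 2 also held 271 CPM at the URT1 locus. That locus had 9.20 and 5.94 CPM in urt1-1 xrn4-3, 14.0 CPM in xrn4-3 replicate 1, 5.93 and 8.04 CPM in urt1-1 and 10.2 and 15.7 CPM in WT. At the XRN4 locus, small RNA gave 7.51 and 6.25 CPM in urt1-1 xrn4-3, 9.96 and 8.37 CPM in xrn4-3, 12.4 and 11.1 CPM in urt1-1 and 13.0 and 11.4 CPM in WT, and such reads do not check a mutation. Whether the library labelled xrn4-3 replicate 2 carries its right label cannot be told from these counts, so its label is in doubt, and values without it are given beside the calls of xrn4-3.

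Together the 10 loci held 232 and 204 CPM of small RNA in urt1-1 xrn4-3, 117 and 225 CPM in xrn4-3, 62.6 and 59.7 CPM in urt1-1 and 79.9 and 54.8 CPM in WT. The mean was 218 ± 19.8 CPM in urt1-1 xrn4-3 and 67.3 ± 17.7 CPM in WT, a ratio of 3.24 (SD, n = 2 each). The xrn4-3 libraries averaged 171 ± 76.4 CPM, 2.55 times the WT mean (1.74 times with replicate 1 alone), and lay far apart, with replicate 2 near the double mutant and replicate 1 between the other groups. In urt1-1 the sum was 61.2 ± 2.05 CPM, 0.909 times the WT mean and within the WT range. No test was made on this sum.

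**Figure D1:**
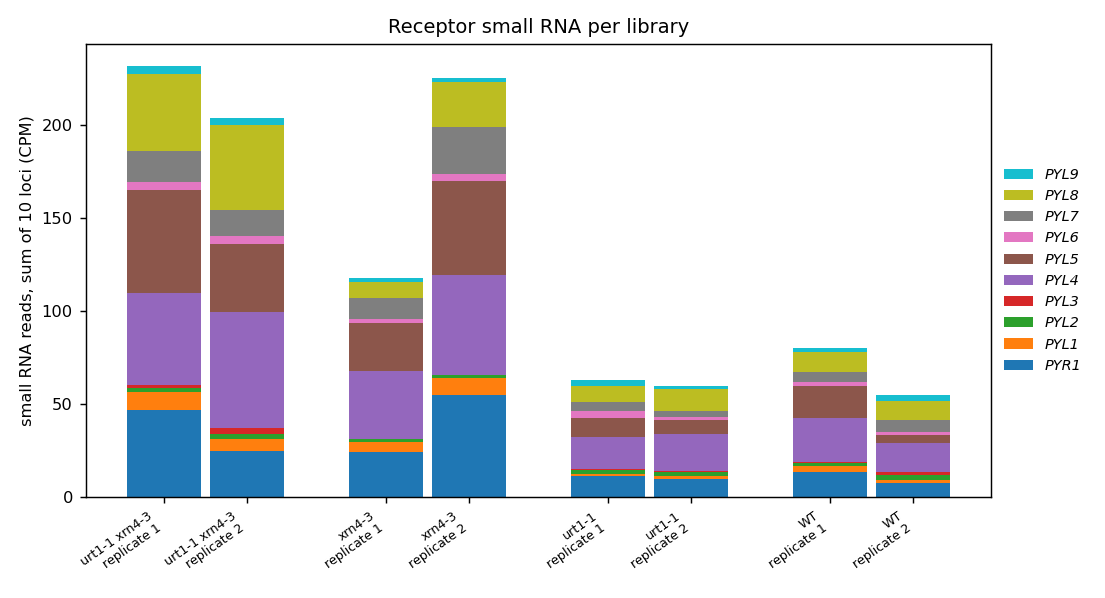
Small RNA reads summed over the 10 receptor loci in each library, in CPM on a linear axis, stacked by member gene. Both urt1-1 xrn4-3 libraries (232 and 204 CPM) and xrn4-3 replicate 2 (225 CPM) stand above 200 CPM, while the urt1-1 and WT libraries lie between 54.8 and 79.9 CPM.

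PYR1, PYL4, PYL5 and PYL8 made up most of this small RNA: between 68.8% and 83.3% of the sum in every library. Per kb of locus, these 4 genes led the order in urt1-1 xrn4-3, with PYL4 at 50.4 ± 8.07, PYR1 at 42.0 ± 18.6, PYL5 at 38.7 ± 11.2 and PYL8 at 28.2 ± 1.88 CPM per kb (SD, n = 2). PYL4 overlapped PYR1 and PYR1 overlapped PYL5, and PYL8 overlapped PYR1 but not PYL5 or PYL7, which followed at 10.6 ± 1.21 CPM per kb. In xrn4-3 PYR1 (46.9 ± 26.0 CPM per kb) and PYL4 (mean 40.8 CPM per kb) came first and overlapped. PYR1 led through replicate 2, and in replicate 1 PYL4 had 33.1 CPM per kb against 28.5 CPM per kb for PYR1. PYL8 lay behind PYL7 in xrn4-3, at 10.9 ± 7.04 against 12.5 ± 6.88 CPM per kb, with overlapping libraries. In urt1-1 the order again began with PYL4, PYR1, PYL5 and PYL8, at 16.9 down to 6.61 CPM per kb, and only PYL5 and PYL8 of these overlapped. WT had the same first 4, with PYL4 at 17.6 ± 5.36, PYR1 at 12.3 ± 4.72, PYL5 at 9.18 ± 7.68 and PYL8 at 6.79 ± 0.046 CPM per kb, and neighbours among these 4 overlapped. PYL3 had the lowest mean of the 10 in every genotype. In urt1-1 xrn4-3 it was at 2.70 ± 1.73 CPM per kb and overlapped PYL6 and PYL9, with replicate 2 (3.92 CPM per kb) above both genes. PYL3 was at 0.41 ± 0.026 CPM per kb in xrn4-3, 0.453 ± 0.055 CPM per kb in urt1-1 and 0.994 ± 0.931 CPM per kb in WT. It overlapped no other member in xrn4-3 and urt1-1, but in WT it overlapped PYL1, and WT replicate 2 had 1.65 CPM per kb at PYL3 against 1.52 CPM per kb at PYL1.

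**Figure D2:**
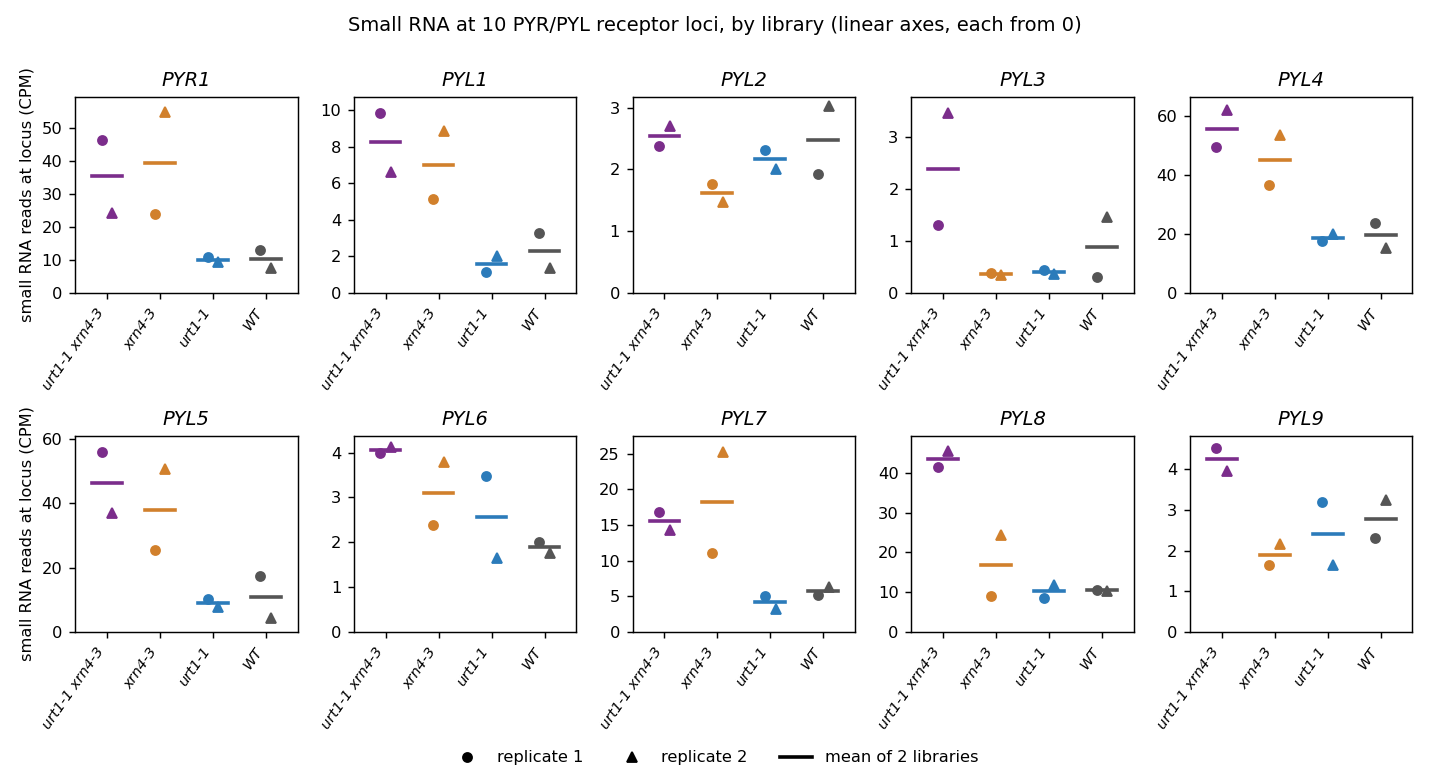
Small RNA reads at each receptor locus, in CPM on linear axes that start at 0, for the 2 libraries of urt1-1 xrn4-3, xrn4-3, urt1-1 and WT. Points are libraries and bars their means. PYL8 reaches 41.5 and 45.5 CPM in the double mutant against 10.5 and 10.4 CPM in WT, whereas PYL2 overlaps between them.

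The comparison of urt1-1 xrn4-3 with WT asks what loss of both decay factors does to small RNA at these genes. Small RNA rose at 6 of the 10 receptor loci, PYR1, PYL1, PYL4, PYL5, PYL7 and PYL8, by 2.70-fold to 4.20-fold, and fell at none (edgeR likelihood ratio test, Benjamini-Hochberg adjusted p under 0.05 over 24722 loci). Each subfamily held 2 of these 6 genes. Over all tested loci, 10% rose and 1.05% fell. The median log2 fold change of the 10 members was 1.51, and that of all tested loci was 0.01. With edgeR's quasi-likelihood test, which allows for uncertainty of the dispersion, only PYL1 and PYL8 rose, beside 7.31% of all loci.

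Among the dimeric receptors, PYR1, the receptor found through the synthetic agonist pyrabactin, had 46.4 and 24.3 CPM in urt1-1 xrn4-3 plantlets, against 13.1 and 7.50 CPM in WT. The groups did not overlap, and the difference of 1.77 ± 0.54 (log2 fold change ± SE) had an adjusted p of 0.0185. PYL1, its closest relative in the family, had 9.89 and 6.61 CPM in urt1-1 xrn4-3 plantlets, against 3.26 and 1.35 CPM in WT. This was a log2 fold change of 1.80 ± 0.50, with an adjusted p of 0.00563, again without overlap. PYL2 gave no call. It had 2.38 and 2.70 CPM in urt1-1 xrn4-3 and 1.93 and 3.02 CPM in WT, a log2 fold change of 0.07 with a 95% interval of -0.75 to 0.89, and the WT libraries enclosed those of the mutant. PYL3 had 1.30 and 3.46 CPM in urt1-1 xrn4-3 plantlets, against 0.296 and 1.46 CPM in WT, from 17 and 114 reads against 4 and 14 reads. Its groups overlapped, and the log2 fold change of 1.52 ± 0.73 was not called, with an adjusted p of 0.193.

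In the second subfamily, PYL4, a receptor linked to crosstalk with jasmonate, had 49.4 and 62.0 CPM in urt1-1 xrn4-3 plantlets, against 23.7 and 15.3 CPM in WT. The log2 fold change was 1.51 ± 0.47 with an adjusted p of 0.0187, and the groups did not overlap. PYL5, whose overexpression is known to make plants more drought resistant, had 55.8 and 36.9 CPM in urt1-1 xrn4-3 plantlets, against 17.5 and 4.48 CPM in WT. Its log2 fold change of 2.07 ± 0.61 was the largest of the 10 (adjusted p = 0.0141), and its WT libraries differed 3.90-fold from each other. PYL6, known to interact with the transcription factor MYC2, had 3.98 and 4.12 CPM in urt1-1 xrn4-3 plantlets, against 2.00 and 1.77 CPM in WT. The groups did not overlap, but the log2 fold change of 1.10 ± 0.45 was not called (adjusted p = 0.0986).

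In the third subfamily, PYL8, which is known for its role in root responses to ABA, had 41.5 and 45.5 CPM in urt1-1 xrn4-3 plantlets, against 10.5 and 10.4 CPM in WT. Its replicates were the closest of the 6 called genes in both genotypes, and the log2 fold change of 2.05 ± 0.50 had an adjusted p of 0.00162. PYL7 had 16.8 and 14.3 CPM in urt1-1 xrn4-3 plantlets, against 5.26 and 6.25 CPM in WT, a log2 fold change of 1.43 ± 0.47 with an adjusted p of 0.0298. AT4G01030, which overlaps PYL7 on the other strand, moved with it, with 19.6 and 11.8 CPM in urt1-1 xrn4-3 plantlets against 5.11 and 3.75 CPM in WT (log2 fold change 1.81 ± 0.52, adjusted p = 0.00999), and its part in the PYL7 result was not tested. AT4G01030 lost the call without either WT library (2.06 and 1.61) or urt1-1 xrn4-3 replicate 1 (1.31). PYL9, which was found as a partner of the phosphatases ABI1 and ABI2, had 4.52 and 3.94 CPM in urt1-1 xrn4-3 plantlets, against 2.30 and 3.23 CPM in WT. Its log2 fold change of 0.62 had a 95% interval of -0.20 to 1.44 and was not called (adjusted p = 0.406).

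At 8 of the 10 loci both double mutant libraries exceeded both WT libraries, the exceptions being PYL2 and PYL3, and 30.1% of all tested loci did so. With 2 libraries a genotype, the calls depended on single libraries. This was not particular to the receptors, since the number of calls over all tested loci also changed with the library left out. Without urt1-1 xrn4-3 replicate 1, only PYL8 was called, with PYR1 at 1.13, PYL7 at 1.22, PYL1 at 1.39, PYL4 at 1.57 and PYL5 at 1.64 on the log2 scale. Without WT replicate 2, PYL3 alone was called, at 3.00, and the 6 others lay at 1.23 (PYL4), 1.33 (PYL1), 1.40 (PYL5), 1.43 (PYR1), 1.56 (PYL7) and 2.05 (PYL8). Without WT replicate 1, the called genes were PYL1 at 2.59 and PYL5 at 3.37, while PYL7 lay at 1.31, PYL4 at 1.86, PYL8 at 2.06 and PYR1 at 2.23. Without urt1-1 xrn4-3 replicate 2, PYL4 at 1.34 and PYL7 at 1.54 lost the call and the other 4 kept it. In each of these fits the 6 genes had positive log2 fold changes of at least 1.13.

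**Figure D3:**
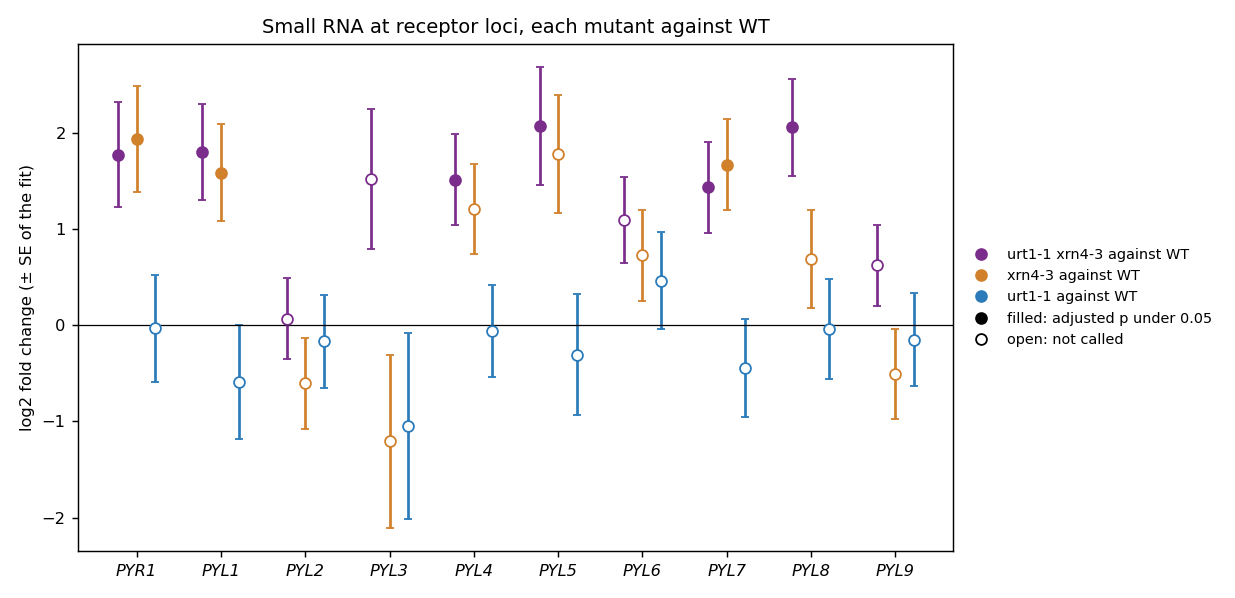
Log2 fold change against WT of each receptor locus, with the SE of the fit, in urt1-1 xrn4-3, xrn4-3 and urt1-1 (left to right at each gene); filled points passed adjusted p under 0.05. The double mutant has 6 filled points between 1.43 and 2.07, xrn4-3 has 3 between 1.59 and 1.93, and urt1-1 has none.

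The comparison of xrn4-3 with WT shares the WT libraries with the one above. With both libraries as labelled, small RNA was called higher in xrn4-3 at 3 of the 10 loci, PYR1, PYL1 and PYL7, and lower at none, beside 4.19% of all tested loci raised and 0.259% lowered. None of the 3 was called without the library labelled xrn4-3 replicate 2, where 2.26% of all tested loci were raised. PYR1 had 24.0 and 54.9 CPM in xrn4-3, against 13.1 and 7.50 CPM in WT (log2 fold change 1.93 ± 0.55, adjusted p = 0.0179). PYL7 had 11.1 and 25.3 CPM in xrn4-3, against 5.26 and 6.25 CPM in WT (1.67 ± 0.47, adjusted p = 0.0172), while the overlapping AT4G01030 was also called (1.69 ± 0.53, adjusted p = 0.0401), but not without xrn4-3 replicate 2 (0.94). PYL1 had 5.17 and 8.89 CPM in xrn4-3, against 3.26 and 1.35 CPM in WT (1.59 ± 0.51, adjusted p = 0.0439). In these 3 genes no xrn4-3 library fell within the WT range, and xrn4-3 replicate 2 was the higher of the pair.

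Without xrn4-3 replicate 2, the log2 fold changes were 1.21 for PYR1, 1.13 for PYL1 and 0.95 for PYL7. Without WT replicate 2 none was called either, at 1.59, 1.12 and 1.79 for PYR1, PYL1 and PYL7. Without WT replicate 1, PYL1 at 2.38 and PYL5 at 3.08 were called, and PYR1 at 2.39 and PYL7 at 1.55 were not. Without xrn4-3 replicate 1, PYR1, PYL1, PYL5 and PYL7 were called, with PYR1 at 2.41. PYL1 also lost its call without either urt1-1 library, at 1.59 in both fits, and without urt1-1 xrn4-3 replicate 1. The quasi-likelihood test called 0 of the 10 and raised 1.99% of all loci. At an unadjusted p under 0.05 it had 5 of the 10, beside 2882 of 24722 tested loci. DESeq2 called PYR1 and PYL7.

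The other members were not called in xrn4-3. PYL5 had 25.3 and 50.5 CPM in xrn4-3 against 17.5 and 4.48 CPM in WT, a log2 fold change of 1.78 ± 0.61 with an adjusted p of 0.0837. PYL4 had 36.6 and 53.7 CPM in xrn4-3 against 23.7 and 15.3 CPM in WT, at 1.21 ± 0.47 with an adjusted p of 0.157. Neither overlapped WT, and without xrn4-3 replicate 2 they were at 1.20 (PYL5) and 0.90 (PYL4) on the log2 scale. PYL8 was different: its 9.08 and 24.4 CPM in xrn4-3 lay on either side of the 10.5 and 10.4 CPM of WT, and its log2 fold change of 0.68 turned to -0.21 without xrn4-3 replicate 2. PYL2 and PYL9 lay below WT in both xrn4-3 libraries, with 1.77 and 1.47 CPM against 1.93 and 3.02 CPM for PYL2 and 1.64 and 2.16 CPM against 2.30 and 3.23 CPM for PYL9. Neither was called (adjusted p = 0.74 and 0.82), and 15% of all tested loci lay below WT in this way. In the other direction, both xrn4-3 libraries were above both WT libraries at 6 of the 10 loci and at 22.9% of all tested loci.

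In urt1-1 no receptor locus was called in either direction by the likelihood ratio test, the quasi-likelihood test or DESeq2, and 0 of the 10 had an unadjusted p under 0.05. Over all tested loci, 0.0243% rose and 0.00404% fell in the likelihood ratio test. At an unadjusted p under 0.05 in that test, 305 of 24722 loci rose and 213 fell. The log2 fold changes ran between -1.05 for PYL3 and 0.46 for PYL6, with a median of -0.16. At PYL3 the counts were 3 and 2 reads in urt1-1 and 4 and 14 reads in WT, and the 95% interval of its log2 fold change ran from -2.94 to 0.84. PYL4, the most abundant member, had 17.5 and 19.9 CPM in urt1-1 and 23.7 and 15.3 CPM in WT, with a 95% interval of the log2 fold change from -0.999 to 0.872. PYL8 had 8.54 and 11.9 CPM in urt1-1 and 10.5 and 10.4 CPM in WT (-0.04, 95% interval -1.06 to 0.98). PYL7 was the only member with both urt1-1 libraries below WT, 5.06 and 3.29 CPM against 5.26 and 6.25 CPM, as 11.6% of all loci were, and none had both above, as 13.6% of all loci did.

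Comparing the double mutant with each single mutant asks what the second mutation added. These comparisons share the urt1-1 xrn4-3 libraries with the one against WT and are not independent of it. Relative to urt1-1, small RNA in urt1-1 xrn4-3 rose at 7 loci, those called against WT and PYL3, and fell at none, beside 8.35% of all tested loci raised and 0.918% lowered. At all 10 loci the double mutant libraries exceeded both urt1-1 libraries, as at 29.8% of all tested loci. The largest differences were at PYL3 (2.56 ± 0.92, adjusted p = 0.0351), PYL1 (2.39 ± 0.56, adjusted p = 5.83e-04), PYL5 (2.38 ± 0.62, adjusted p = 0.00474) and PYL8 (2.09 ± 0.51, adjusted p = 0.00184). PYL1, for example, had 9.89 and 6.61 CPM in urt1-1 xrn4-3 plantlets against 1.16 and 2.01 CPM in urt1-1. The quasi-likelihood test called 4 of them, PYL1, PYL5, PYL7 and PYL8, and 5.99% of all loci as raised. Without urt1-1 replicate 1 only PYL7 was called, with PYL8 at 1.87 and PYL1 at 2.02, without urt1-1 replicate 2 only PYL1 and PYL8, with PYL7 at 1.62, and without urt1-1 xrn4-3 replicate 1 only PYL1, PYL3 and PYL8, with PYR1 at 1.16. Without urt1-1 xrn4-3 replicate 2, PYL3 at 1.66 and PYL4 at 1.40 lost the call.

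Relative to xrn4-3, small RNA in urt1-1 xrn4-3 rose at a single member, PYL3, and fell at none, beside 1.73% of all tested loci raised and 0.311% lowered. PYL3 had 1.30 and 3.46 CPM in urt1-1 xrn4-3 plantlets against 0.378 and 0.345 CPM in xrn4-3, which is 17 and 114 reads against 3 and 4 reads. The log2 fold change was 2.72 ± 0.85 (adjusted p = 0.0448), and the adjusted p was 0.216 in the quasi-likelihood test, which called 0.166% of all loci as raised. The call was also lost without either xrn4-3 library (2.78 without replicate 1 and 2.65 without replicate 2), without either urt1-1 library (2.72 each) and without urt1-1 xrn4-3 replicate 2 (1.82).

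PYL8 showed the clearest separation of the abundant members in this comparison, with 41.5 and 45.5 CPM in urt1-1 xrn4-3 plantlets against 9.08 and 24.4 CPM in xrn4-3. Its log2 fold change of 1.37 ± 0.50 was not called (adjusted p = 0.177), but without xrn4-3 replicate 2 it was 2.26 and was called. PYR1, PYL7, PYL5, PYL4 and PYL1 overlapped between the genotypes. PYR1 had 46.4 and 24.3 CPM in urt1-1 xrn4-3 and 24.0 and 54.9 CPM in xrn4-3, a log2 fold change of -0.16 with a 95% interval of -1.22 to 0.90. PYL7 was at -0.24, with an interval of -1.14 to 0.67. Without xrn4-3 replicate 2 both turned positive, to 0.56 for PYR1 and 0.48 for PYL7. Both urt1-1 xrn4-3 libraries were above both xrn4-3 libraries at 5 of the 10 loci and at 19.8% of all tested loci.

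Whether the effect of urt1-1 differed with and without XRN4 was tested by the interaction term. It was called at 0 of the 10 members, by the likelihood ratio test and by the quasi-likelihood test, with 2 at an unadjusted p under 0.05 in each, PYL3 and PYL9. Over all tested loci, 0.089% had a positive and 0.0324% a negative called interaction. At an unadjusted p under 0.05, 857 of 24722 tested loci had a positive and 429 a negative term in the likelihood ratio test. In the quasi-likelihood test, 1151 passed that threshold. PYL3 had the largest term, 3.77 ± 1.28 (adjusted p = 0.437), from counts of 2 to 14 reads outside the double mutant. PYL8 followed at 1.41, with a 95% interval of -0.01 to 2.83 and an adjusted p of 0.967. The term of PYL9 ran from 0.91 to 1.86 with a library left out. For PYR1 the term was -0.13, with an interval of -1.65 to 1.39. Without xrn4-3 replicate 2 the terms were 3.70 for PYL3, 2.30 for PYL8 and 0.59 for PYR1, and 0 of the 10 were called.

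The 6 loci called in urt1-1 xrn4-3 varied together over the 8 libraries. Pearson's r of log2(CPM + 1) ranged between 0.708 and 0.961 over their 15 pairs, with PYR1 and PYL5 the most alike. Between these 6 and the other members, r ranged between -0.46 and 0.774. These values describe 8 libraries that share genotype and depth, and the 6 were grouped by a call on the same libraries. Many loci had such a pattern: between 132 (PYL5) and 329 (PYR1) tested loci correlated above 0.95 with a called member. Most like PYL4 was FLA16, most like PYL5 was LRX3 and most like PYL8 was AHBP-1B, with r of 0.997, 0.996 and 0.99 over 8 libraries. For PYR1, PYL1 and PYL7 the closest were AT2G40020, AT1G26220 and AT4G32800, with r of 0.993, 0.991 and 0.994.

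PYL10 to PYL13, the remaining receptor genes, had 4 to 59 reads a library, and none was called in any comparison or had an unadjusted p under 0.05 (likelihood ratio and quasi-likelihood tests). In urt1-1 xrn4-3 against WT their log2 fold changes were 0.42 (PYL10), 0.67 (PYL11), 0.77 (PYL12) and 0.57 (PYL13), and both mutant libraries lay above both WT libraries at all 4, as at 30.1% of all tested loci. PYL11 and PYL12 share 46 windows of 21 nt, so a read from these windows could be counted at both, and how many were is not known from the counts.

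The receptors' partners in the pathway were compared in urt1-1 xrn4-3 against WT. Of the 41 listed genes outside the receptor family, 12 rose and 0 fell, with a median log2 fold change of 0.44, beside 10% of all tested loci raised and 1.05% lowered. The quasi-likelihood test called 9 as raised, beside 7.31% of all loci, and 0 as lowered. Without WT replicate 1 the count raised was 6 and without urt1-1 xrn4-3 replicate 1 it was 7, where 5.45% and 5.73% of all tested loci rose. The clade A PP2Cs, the receptors' direct partners, had the most calls, 6 of 9. These 6 lay at 3.68 (PP2CA), 3.27 (ABI1), 2.72 (ABI2), 2.43 (HAB1), 1.96 (HAI1) and 1.60 (HAI2) on the log2 scale. HAI3 at 1.20, HAB2 at 1.10 and AHG1 at -0.54 were not called. At AHG1 both double mutant libraries lay below both WT libraries, while at 8 of the 9 genes they lay above. No SnRK2 kinase gene was called (0 of 5, range -0.22 to 0.84), and of the 7 transcription factor genes ABF2 alone rose, by 2.58 on the log2 scale. Among 10 genes of ABA synthesis 3 rose, most of all NCED3, which encodes the rate-limiting cleavage enzyme, by 4.99, followed by NCED9 at 1.54 and ABA2 at 1.44. NCED3 had 418 and 136 CPM in urt1-1 xrn4-3 plantlets, against 9.93 and 7.40 CPM in WT, and its log2 fold change was 3.87 without urt1-1 xrn4-3 replicate 1 and 5.59 without replicate 2, called in both. NCED9, ABA2 and HAI2 were not called in the quasi-likelihood test. NCED9 and ABA2 lost the call without either WT library or urt1-1 xrn4-3 replicate 1 (0.97 for NCED9 and 1.20 for ABA2 in the last), and HAI2 lost it without WT replicate 1 or urt1-1 xrn4-3 replicate 1 (1.11 each) and without either urt1-1 library (1.60 each). HAI1 lost it without WT replicate 1 (1.64) or urt1-1 xrn4-3 replicate 1 (1.65), RD29B without either WT library (1.42 and 1.61) or urt1-1 xrn4-3 replicate 1 (0.86), and ABCG25 without WT replicate 1 (1.37). None of the 4 CYP707A genes of ABA breakdown was called, and the exporter gene ABCG25 (1.79) and the ABA-responsive gene RD29B (1.51) were the only calls of their lists of 3. Of the 5 kinase genes and the 4 CYP707A genes, 0 had an unadjusted p under 0.05 in either edgeR test. Over all 24722 tested loci, 3975 rose and 1390 fell at that threshold in the likelihood ratio test. In xrn4-3 against WT, 3 of the 41 were called as raised, ABI1, HAB1 and NCED3, beside 4.19% of all tested loci, and NCED3 alone was raised without xrn4-3 replicate 2 or without WT replicate 1. In urt1-1 against WT 0 were called, beside 0.0243% of all tested loci raised. Of the 41, 1 had an unadjusted p under 0.05, beside 305 loci raised and 213 lowered of 24722 in the likelihood ratio test.

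**Figure D4:**
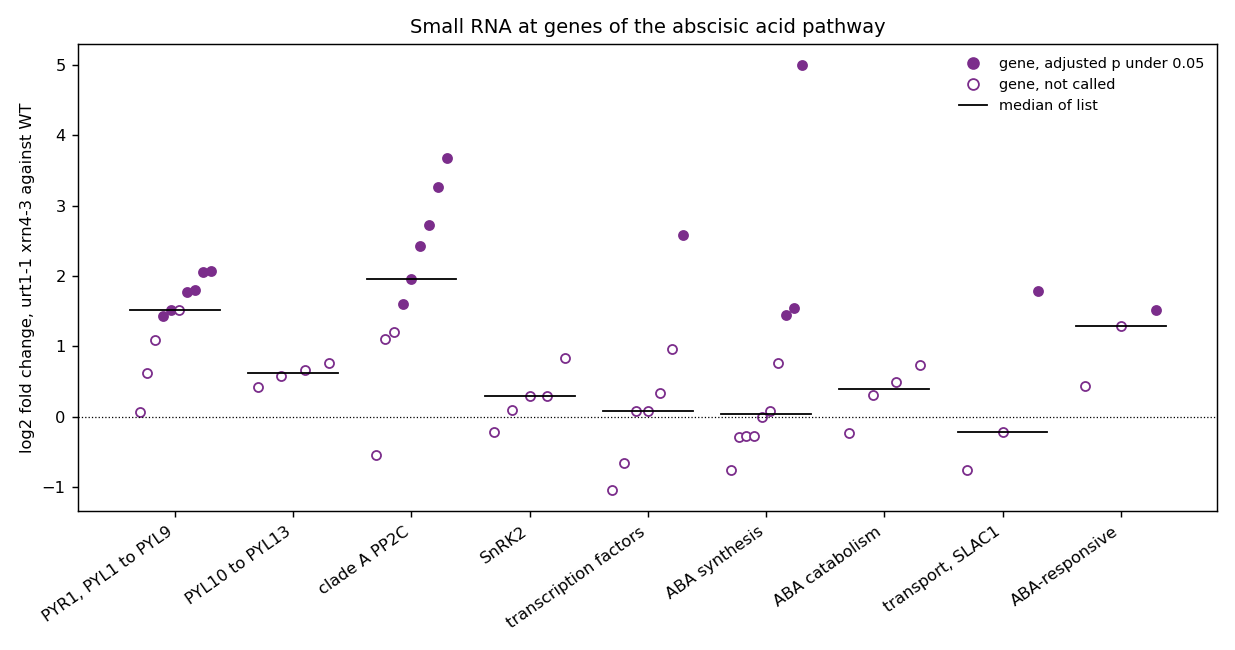
Log2 fold change of small RNA in urt1-1 xrn4-3 against WT for each gene of the receptor family and of 7 other lists of the ABA pathway; filled points passed adjusted p under 0.05 and bars are list medians. The 10 receptors have 6 filled points and a median of 1.51, the 9 phosphatases 6 filled points and a median of 1.96, and the 5 kinases none.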

How the data were processed

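Small RNA libraries were made by the authors from total RNA of 2 biological replicates of each of 4 genotypes. Per the labels and the study's methods, bases were called with CASAVA 1.8.2, reads were aligned to TAIR10 with Bowtie 1.0.0, reads with very many loci were discarded, and reads overlapping mRNA loci were counted with BEDTools 2.17.0, with default settings, which ignore strand. The deposited raw counts per locus, whole numbers that are not normalized, were used, and the deposited CPM columns were not.

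Counts were analysed in R 4.3.3 with edgeR 4.0.16: filterByExpr with a count minimum of 10 kept 24722 of 24859 loci, TMM scaled the libraries, and a negative binomial model with all 8 libraries and 4 genotype terms was tested by likelihood ratio, as the study names this model for small RNA (common dispersion 0.106). P-values were adjusted by Benjamini and Hochberg over all tested loci, with a threshold of 0.05. SE and 95% intervals come from the fitted model. CPM use the filtered library totals times TMM factors. The fit was repeated with the quasi-likelihood test, with DESeq2 1.42.0, with other scalings, filters and sets of samples and with a replicate block. P-values set each difference between genotypes against a dispersion that was estimated from all libraries of a fit, with information shared across loci. They rest on 2 libraries a genotype. Counts of several loci can include the same multiply mapping read.

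Sequences, gene models and windows came from RefSeq build TAIR10.1, and positions of loci from the table. Genes named are the 10 members, PYL10 to PYL13, every pathway-list gene called in urt1-1 xrn4-3 against WT up to 12, and the 3 loci most correlated with each called member, of which the first is printed. AHG1 is named as the phosphatase gene that lay below WT. Members and lists were chosen with earlier results of these data known.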

Additional observations from a re-analysis of the deposited data

How the results depend on the processing

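For the 58 gene results, 824 of 958 values under an alternative kept direction and side of the threshold, 105 lost the call, 12 gained it and 17 changed sign. The number of receptor loci raised in urt1-1 xrn4-3 against WT was 6, with 2 in the quasi-likelihood test and 1 to 6 with a library left out. In xrn4-3 against WT it was 3, with 0 in the quasi-likelihood test and in the fit of these genotypes alone, and 0 to 4 with a library left out. In urt1-1 xrn4-3 against xrn4-3 it was 1, with 0 in the quasi-likelihood test, DESeq2, scaling by library size only and with at least 10 reads in every library (which dropped PYL3), 2 with the replicate block, and 0 to 1 with a library left out. In urt1-1 xrn4-3 against urt1-1 it was 7, with 4 in the quasi-likelihood test and 1 to 7 with a library left out. The block added PYL3 in urt1-1 xrn4-3 against WT, PYL5 in xrn4-3 against WT and PYL8 in urt1-1 xrn4-3 against xrn4-3, and removed no call of a receptor locus. Same-numbered deviations correlated at 0.006 to 0.419, not above 0.1 in every pair of genotypes. Replicates were grown at different times, but which libraries of different genotypes were grown together is not given in the sources used here, so the numbers were not taken as pairs. Beyond those, signs changed as follows. PYL2 in urt1-1 xrn4-3 against WT was -0.016 with RLE factors, -0.025 with DESeq2 and -0.24 to 0.41 with a library left out. With a library left out, PYL3 was -1.99 to 0.27 and PYL8 -0.21 to 1.22 in xrn4-3 against WT, and PYL3 was -1.83 to 0.43 and PYL6 -0.20 to 0.87 in urt1-1 against WT. In urt1-1 xrn4-3 against xrn4-3, genome-mapped reads as library size gave 0.19 for PYR1 and 0.17 for PYL7, and leaving out a library gave -0.71 to 0.56 and -0.71 to 0.48. The interaction term of PYR1 was 0.22 with that library size and -0.69 to 0.59 with a library left out. The cause was not tested. That library size raised 4924 of all loci in urt1-1 xrn4-3 against WT in place of 2474 and shifted the median of all loci to 0.74 there and to 0.83 against urt1-1. PYL3 had under 15 reads in each library outside the double mutant.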
